A study of Rattus norvegicus with 2 samples.

Results

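The kinases and PAR proteins that set up neuronal polarity were read in cortical neurons of Sprague-Dawley rat embryos, dissociated at E16 (embryonic day 16), electroporated with a control plasmid or a PIWIL1 RNAi plasmid and cultured for 48 h. Each group was 1 library. Of the 10 genes listed by symbol (Mark1, Mark2, Mark3, Pard3, Pard6a, Prkcz, Prkci, Stk11, Gsk3a and Gsk3b), 9 had a value among the 9894 genes in either table, and no value was found for Pard6a. Which PIWIL1 siRNA was used and what share of the cells took up the plasmid are not given in the labels. Both groups were grown in medium with serum. No value was found for Piwil1 itself, so the knockdown was not checked in these libraries.

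Each transcript was cut at CATG and read as a tag of 21 bases, so the copies of a gene's tags measure its mRNA, and TPM here scales those copies to the library's clean tags, with no division by gene length. A gene can have several tags, from different CATG sites and at times from the same site, and the sites are counted from the 3′ end. The control library held 1947600 copies on genes and the PIWIL1 RNAi library 1865913, and no tag with fewer than 2 copies was listed. The neuronal markers, Stmn2 and Gap43 among them, summed to 4570 TPM in the control library and 4160 TPM in the RNAi library. Of 11 listed, 10 had a value and 1, Fezf2, was called lower. The markers did not move alike. Tubb3 went from 454 to 323 TPM and Neurod6 from 376 to 257, whereas Gap43 went from 788 to 1072 and Neurod2 from 168 to 235. The log2 ratio of Fezf2, -0.58, lay close to the threshold given below. With copies corrected for the tag end, as described below, it was -0.48 for Fezf2 and -0.47 for Gap43 (as deposited 0.44). Markers of interneurons, astrocytes, oligodendrocyte lineage, microglia, endothelial and mural cells and erythroid cells were also summed. The sums ran from 1.52 TPM (endothelial and mural cells, RNAi, 2 of 6 with a value) to 88.6 TPM (astrocytes, control, 4 of 5). Slc1a3 alone held 68.2 TPM of the latter. Microglia had a value for 3 of 6 markers and erythroid cells for 2 of 4, so these sums do not rank the cell types. Progenitor markers went from 194 to 150 TPM (5 of 6 with a value) and markers of dividing cells from 230 to 177 TPM (2 of 4 with a value), with no gene of either list called and no value for Eomes, Mki67 or Top2a.

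Polarity begins when one neurite of a young neuron becomes the axon. The scaffold PAR3, its partner PAR6 and the atypical protein kinases C (aPKC) gather with the GTPase CDC42 at the tip of that neurite. LKB1, the product of Stk11, activates the SAD and MARK kinases. MARKs phosphorylate tau, MAP2 and MAP4 and loosen them from microtubules, and aPKC in turn phosphorylates and restrains MARKs. GSK3 kinases, which AKT inhibits, phosphorylate MAP1B, tau and CRMP2 and must be locally silenced for an axon to form.

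Mark1 was the only one of the 9 genes called, and it was lower in the PIWIL1 RNAi library. The other 8 genes were not called, among them its paralogs Mark2 and Mark3, both atypical PKC genes, Stk11 and both Gsk3 genes. To be called, a gene had to pass Fisher's exact test (two-sided, its copies against all other copies on genes) at an FDR of 0.05, and its log2 ratio of TPM had to reach 0.58 in either direction. By this rule 591 genes (5.97% of 9894) were lower and 293 (2.96%) higher in the RNAi library, so the count of 1 lower and 0 higher among 9 genes is to be read against these shares and is no result about the group. The test compares the 2 libraries and not the conditions, because no spread between cultures enters it, and all intervals are exact at 95% and cover counting error only.

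Over the 9 genes the log2 ratio ran from -0.81 to 0.39 with a median of -0.06, against a median of -0.085 over the 8899 genes listed in both libraries. It was below 0 for 6 of the 9 genes and for 56.6% of all genes. The intervals of 7 of the 9 genes included 0, and those of 4 (Prkcz, Stk11, Mark3 and Gsk3a) lay wholly between the 2 thresholds. The 9 genes together had 1161 copies in the control library and 1125 in the RNAi library.

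**Figure D1:**
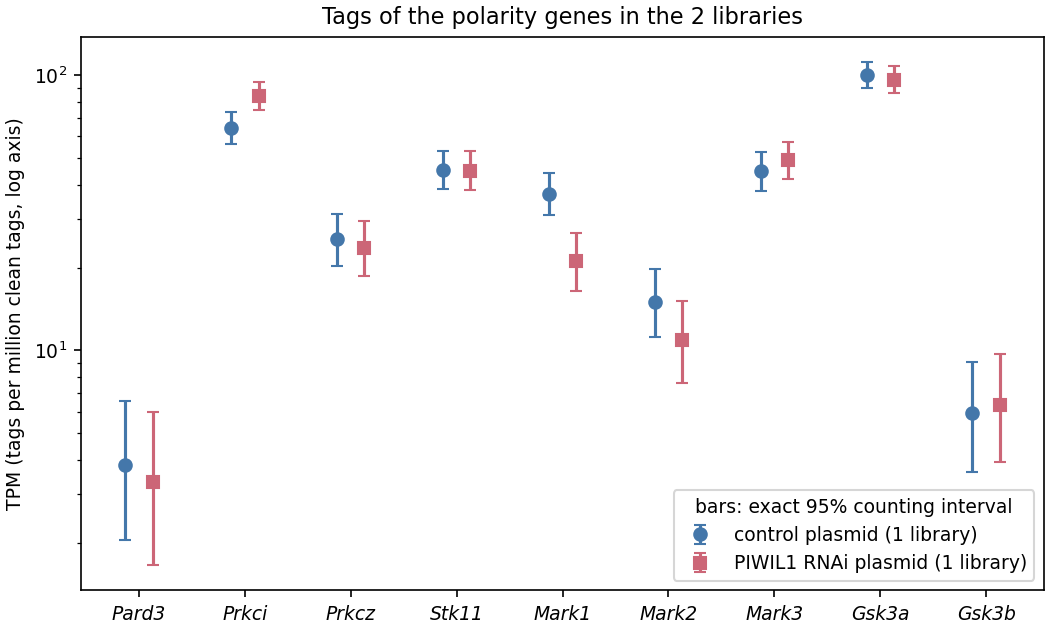
TPM (log axis) of the 9 polarity genes in the control library (blue circles) and the PIWIL1 RNAi library (red squares), 1 library each, with exact 95% counting intervals. The intervals of the 2 libraries are apart for Mark1 (31.0 to 44.3 and 16.5 to 26.8 TPM) and for Prkci (56.1 to 73.5 and 74.6 to 94.7 TPM), and overlap for the other genes. They cover counting error only, and Prkci was not called. The share of all genes with intervals apart was not taken, so this is no result about these genes.

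Among the PAR complex genes, Pard3, which encodes the scaffold PAR3, had 13 copies in the control library and 11 in the RNAi library, or 3.84 and 3.33 TPM. Its log2 ratio was -0.21 (95% interval -1.51 to 1.07). With 24 copies in all it would have needed a 3.71-fold fall or a 3.9-fold rise to be called, so smaller differences were not detectable at this depth. It was read from 2 tags, neither of them at the most 3′ site, and the one at site 9 held 79.2% of the copies. For the PAR6 partner, the paralogs Pard6b (17 and 21 copies) and Pard6g (22 and 26 copies) were listed and not called.

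Prkci, which encodes the atypical kinase PKC iota, had 218 copies in the control library and 278 in the RNAi library (64.4 and 84.2 TPM). Its log2 ratio of 0.39 (95% interval 0.13 to 0.65) passed the FDR threshold (Fisher's exact test, FDR 0.0135) and fell short of the ratio threshold of 0.58, so the gene was not called. Nearly all of this came from a single tag at the most 3′ site, which held 94.8% of the copies and went from 204 to 266. The other 5 tags had 14 and 12 copies, a log2 ratio of -0.19.

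Prkcz, the gene of PKC zeta, had 86 and 78 copies (25.4 and 23.6 TPM) and a log2 ratio of -0.10 (95% interval -0.57 to 0.35). Its copies were spread over 9 tags. Of the 4 that reached 20 copies, the one at site 3 went from 8 to 14 and the other 3 had fewer copies in the RNAi library, and none was called. The ratio of Prkci divided by that of Prkcz was 1.41 (95% interval 0.971 to 2.04), an interval that includes 1, so a difference between the 2 atypical kinases was not shown at this depth.

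The tags behind these values are shown with their last 2 bases in capitals, because the ratio of a tag in these libraries varied with its end. They are the most copied tag of each PAR complex gene and the Prkcz tag that went against its gene.
Pard3, site 9: catgcaataaaggacatttCC
Prkci, site 1: catgtagaacactgccttgTT
Prkcz, site 1: catggcggccctaccagagGG
Prkcz, site 3: catgagcatctctgttgtgGA

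Stk11, the gene of LKB1, had 154 and 149 copies, or 45.5 and 45.1 TPM, and a log2 ratio of -0.01 (95% interval -0.35 to 0.32). At its 303 copies a 1.51-fold fall or a 1.5-fold rise would have been called. The main tag at site 4, with 68.6% of all copies, went from 115 to 93, whereas the other 11 tags together went from 39 to 56 copies, and the one at site 3 from 11 to 19. Neither the site 4 tag nor the site 3 tag was called. Without its most copied tag the log2 ratio of Stk11 was 0.56 (Fisher's exact test, FDR 0.21). Site 4 was listed with 3 tags, of which the 2 rare ones each had 1 mismatch to the most copied one. They are shown because they count toward the gene, with the positions that vary in capitals.
Stk11, site 4, 115 and 93 copies: catgGcgaggctgcccAatct
Stk11, site 4, 2 copies in the control library: catgAcgaggctgcccAatct
Stk11, site 4, 2 copies in the control library: catgGcgaggctgcccCatct
The Stk11 tag that went against its gene is shown with its last 2 bases in capitals.
Stk11, site 3, 11 and 19 copies: catgcagagagcgagcaggCG

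Mark1, a MARK kinase gene, had 126 copies in the control library and 70 in the RNAi library, or 37.2 and 21.2 TPM. The RNAi value was 0.57 times the control value, a log2 ratio of -0.81 (95% interval -1.25 to -0.38) with an FDR of 0.00277 (Fisher's exact test). Of its 10 tags, 7 had fewer copies in the RNAi library, 2 had equal copies and 1 had more (site 8, from 3 to 6). Each of the 3 that reached 20 copies had fewer in the RNAi library, from 32 to 21 copies at site 1, from 43 to 17 at site 2 and from 19 to 10 at site 3.

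By the same thresholds, 7.22% of the 16021 tags that reached 20 copies, summed over the libraries, were called lower and 4.09% higher. Of the 20 such tags of the polarity genes, 14 were lower and 6 higher, 1 was called lower and 0 were called higher. The median log2 ratio over all 16021 tags, with 0.5 copies added, also lay below 0, at -0.08. These directions are therefore no result about the polarity genes. The tag called was that of Mark1 at site 2 (log2 ratio -1.30, 95% interval -2.21 to -0.46) with an FDR of 0.0150 over tags (Fisher's exact test). The intervals of the Mark1 tags at site 1 (-1.44 to 0.27) and site 3 (-2.16 to 0.29) included 0, and neither was called. A Mark1 tag at site 5 had 9 copies in the control library and was not listed in the RNAi library.

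The Mark1 tags at sites 1 to 3 are shown with their last 2 bases in capitals.
Mark1, site 1: catgctattttgaaaattgTG
Mark1, site 2: catgtacaggtaagtatatTG
Mark1, site 3: catgcagaaatcgtccttaAT
Tags ending in TG held 57.7% of the copies of Mark1 and 22.0% of those of Gsk3b, and were absent from the other 7 genes. The 866 tags with this end and at least 20 copies had a median log2 ratio of -0.67 (quartiles -1.30 and -0.02), against -0.08 over all 16021. Mark1's tag at site 1 had a log2 ratio of -0.57, above that median, and its tag at site 2 lay near the lower quartile. Without its most copied tag Mark1 had 83 and 53 copies, a log2 ratio of -0.61 (Fisher's exact test, FDR 0.269). On its tags with ends other than TG it had 51 and 32 copies, a log2 ratio of -0.64 (Fisher's exact test, FDR 0.225). Among these, the tags at sites 3 and 5 end in AT, an end with a median log2 ratio of -0.39 over 1040 tags. With copies corrected for the tag end the log2 ratio of Mark1 was -0.42 (Fisher's exact test, FDR 0.267), and it was not called. When a biological coefficient of variation of 0.1 between cultures was assumed, the FDR of Mark1 was 0.159 by edgeR's exact test. Beside this fall, the summed TPM of progenitor markers in the RNAi library was 0.774 times and that of dividing-cell markers 0.771 times the control value. With copies corrected for the tag end, the log2 ratios were -0.0379 for Cdk1 (as deposited -0.32), -0.23 for Ccnb1 (-0.55) and -0.0406 for Sox2 (-0.26), and between -0.87 and -0.29 for Hes1, Hes5, Nes and Pax6. The part of these markers in the Mark1 value was not tested, and fewer cells of a type and less RNA per cell cannot be told apart in these libraries.

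**Figure D2:**
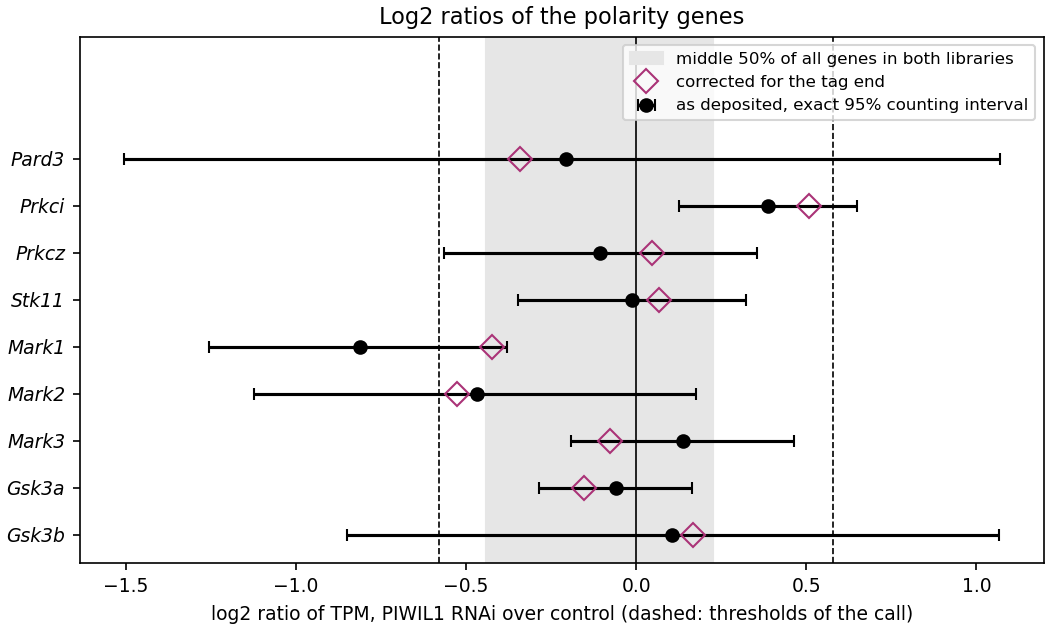
Log2 ratio of TPM, PIWIL1 RNAi over control, of the 9 polarity genes as deposited (black, with exact 95% counting intervals) and with copies corrected for the tag end (open diamonds). Dashed lines mark the thresholds of -0.58 and 0.58 and the grey band the middle 50% of all genes in both libraries. Mark1 lies at -0.81 as deposited, beyond the threshold, and at -0.42 after the correction, inside it.

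Mark2 had 51 copies in the control library and 36 in the RNAi library (15.1 and 10.9 TPM), a log2 ratio of -0.47 (95% interval -1.12 to 0.18). A 1.85-fold fall would have been needed for a call at this depth. Its most copied tag, at site 1, had 19 and 9 copies, and the remaining 10 tags had 32 and 27. Mark3 had 152 and 163 copies (44.9 and 49.3 TPM) and a log2 ratio of 0.14 (95% interval -0.19 to 0.47). Of the 5 Mark3 tags that reached 20 copies, 3 had fewer in the RNAi library (sites 1, 3 and 10) and 2 had more (sites 8 and 11), and none was called. The most copied tag of each and the Mark3 tags that went against their gene are shown, last 2 bases in capitals.
Mark2, site 1, 19 and 9 copies: catgtttgtgggggatgggAA
Mark3, site 1, 38 and 33 copies: catgacattaaagtctgagGA
Mark3, site 3, 21 and 18 copies: catgatgcgggagatccgcAA
Mark3, site 10, 27 and 23 copies: catgtccacagactgtgagAA

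The MARK genes were also set against each other, which needs no scaling of the libraries. These pairs were chosen after the values were seen. The ratio of Mark1 was 0.519 times that of Mark3 (95% interval 0.353 to 0.759). It was 0.788 times that of Mark2 (95% interval 0.455 to 1.37), and that of Mark2 was 0.659 times that of Mark3 (95% interval 0.394 to 1.09). The interval of Mark1 against Mark3 lay below 1, and the other two included 1. With copies corrected for the tag end, the log2 ratios were -0.42 for Mark1, -0.53 for Mark2 and -0.08 for Mark3.

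The MARK genes share stretches of sequence. Tags of related genes were put in a set where a pair differed at no more than 6 positions, a limit set for this comparison. By it, 8 sets of tags from different MARK genes (Mark4 included) lined up base for base with between 3 and 6 differing positions. Within that limit no such set was found among the listed tags of Prkci and Prkcz or of Gsk3a and Gsk3b. A set with all 4 MARK genes is shown with the differing positions in capitals, to show how far the paralogs could be told apart.
Mark1, site 13, 2 and 2 copies: catgtcCacGgactgCgaGaA
Mark2, site 8, 4 and 3 copies: catgtcCacGgactgTgaAaA
Mark3, site 10, 27 and 23 copies: catgtcCacAgactgTgaGaA
Mark4, site 10, 2 and 11 copies: catgtcTacAgactgCgaGaG
A second set held Mark1, Mark2 and Mark3 and includes the Mark1 tag that was listed in the control library only.
Mark1, site 5, 9 copies and not listed: catgaaGaccacTagTtcAat
Mark2, site 5, 2 and 3 copies: catgaaGaccacGagCtcTat
Mark3, site 5, 3 copies and not listed: catgaaAaccacTagTtcCat
Of the 66 tags of the polarity genes, 60 differed from every tag of another gene in the tables at 3 positions or more, and 6 at 2 positions. Of those 6 tags, 5 belonged to the MARK genes and lay in these 2 sets. None of the Mark1 tags at sites 1 to 3 lay in such a set, and they differed from tags of other genes at 4 or 5 positions.

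Gsk3a, the gene of GSK3 alpha, was the deepest read of the 9, with 341 and 319 copies, or 100.68 and 96.6 TPM. Its log2 ratio was -0.06 (95% interval -0.285 to 0.16). Both of its tags gave like values, 283 and 265 copies at site 1 and 58 and 54 at site 2. Gsk3b, the gene of GSK3 beta, had only 20 and 21 copies (5.91 and 6.36 TPM) and a log2 ratio of 0.11 (95% interval -0.85 to 1.07). It would have needed a 2.66-fold fall or a 2.48-fold rise to be called, so a smaller change was not detectable at this depth. The ratio of Gsk3a divided by that of Gsk3b was 0.891 (95% interval 0.449 to 1.76). The most copied tag of each is shown, last 2 bases in capitals.
Gsk3a, site 1, 283 and 265 copies: catgtcccttgtaaatagaAC
Gsk3b, site 3, 14 and 15 copies: catgtcggggcgaccgagaAC

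**Figure D3:**
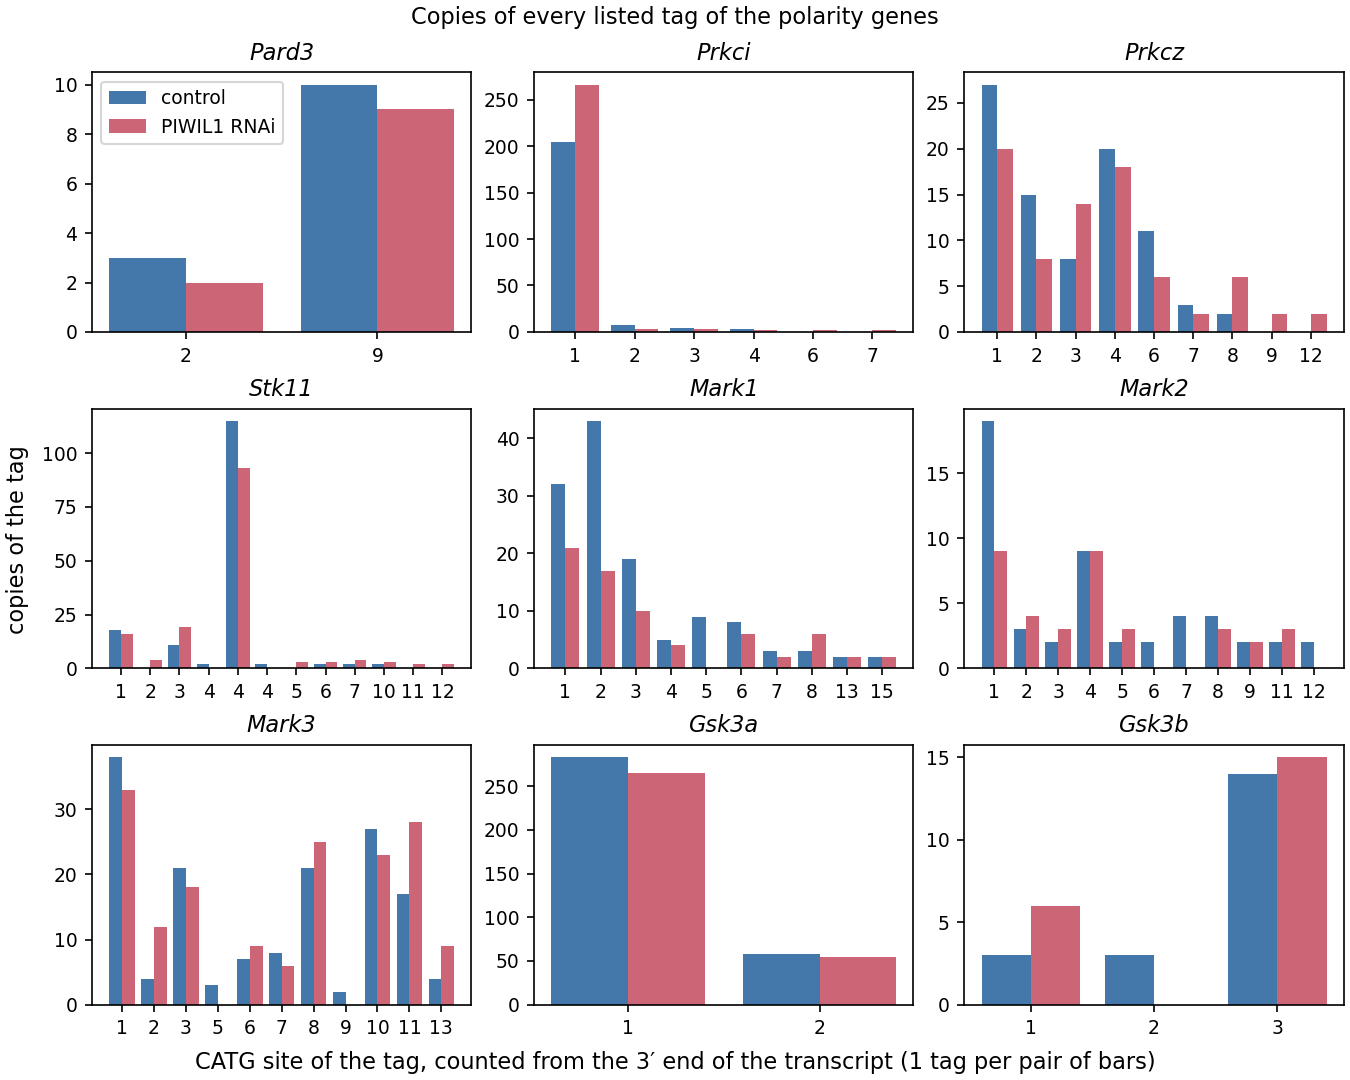
Copies of every listed tag of the 9 polarity genes in the control (blue) and PIWIL1 RNAi (red) libraries, 1 pair of bars per tag, ordered by CATG site from the 3′ end, with a separate vertical axis from 0 in each panel. Prkci and Gsk3a rest mainly on 1 tag at site 1, Stk11 on the tag at site 4, and Mark1 on several sites of which the first 3 are lower in the RNAi library.

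The genes differed in where along the transcript they were read. The site nearest the 3′ end held 93.6% of the control copies of Prkci (95% exact interval 89.5 to 96.4) and 83.0% of those of Gsk3a (78.6 to 86.8). It held 11.7% for Stk11 (7.08 to 17.8) and 25.4% for Mark1 (18.1 to 33.9). Pard3 had no copies there. The shares in the RNAi library lay within these intervals for Prkci (95.7%), Gsk3a (83.1%), Stk11 (10.7%) and Mark1 (30.0%). Over the 9 genes 53.7% of the control copies and 56.5% of the RNAi copies were at that site, against 62.7% and 64.6% over all genes. Of the 66 tags, 49 were listed in both libraries, 9 only in the control library and 8 only in the RNAi library. No tag listed in a single library had more than 9 copies. Tags with fewer than 2 copies were not listed, so such a tag can have been present in the other library. The matching share over all tags was not taken, so these counts are no result about the polarity genes. Because the genes were read at different sites, copies are not a scale on which they can be ranked against each other.

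The partners of these genes were mostly not called either. In 3 lists of upstream, partner and downstream genes, 40 genes besides the 9 had a value, of which 2 (5.0%) were lower and 0 higher, near the 5.97% and 2.96% over all genes. The list of PAR complex partners and opponents had a value for 17 of 22 genes, none of them called. Its most copied gene was Cdc42, the GTPase that binds PAR6, with 348 and 401 copies (log2 ratio 0.24, 95% interval 0.03 to 0.45) and an FDR of 0.0647 (Fisher's exact test). Without its most copied tag Cdc42 was called higher (log2 ratio 0.72), and on that tag alone its log2 ratio was -0.11. With copies corrected for the tag end the log2 ratio of Cdc42 was 0.0428 (Fisher's exact test, FDR 0.734). The list of LKB1 cofactors and downstream kinases had a value for 14 of 19 genes, with Mark1 as its single call. Its most copied gene was Cab39, the gene of the LKB1 cofactor MO25 alpha, with 467 and 460 copies (log2 ratio 0.01).

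The list of GSK3 upstream signalling and destruction complex genes had a value for 18 of 22 genes, of which Pik3ca and Csnk1a1 were lower. Pik3ca, a catalytic subunit of PI3-kinase, which acts upstream of AKT, had 228 and 118 copies (log2 ratio -0.91, 95% interval -1.25 to -0.59) and an FDR of 7.96e-07 (Fisher's exact test). It was still called with copies corrected for the tag end (log2 ratio -0.94), and of its 4 tags that reached 20 copies, 3 were below their control value. Without its most copied tag the log2 ratio was -0.50 (Fisher's exact test, FDR 0.226). Csnk1a1, the gene of casein kinase 1 alpha, which primes beta-catenin for GSK3, had 16 and 3 copies (Fisher's exact test, FDR 0.0312). Once copies were corrected for the tag end, this gene no longer passed (Fisher's exact test, FDR 0.0617). It lost its call in 8 of 16 alternatives, and its log2 ratio of -2.37 became -1.38 with 1 copy put back for tags listed in a single library and -0.70 on its most copied tag alone. The most copied gene of the list, Ilk, which encodes integrin-linked kinase, had 467 and 533 copies and a log2 ratio of 0.23, and without its most copied tag -0.60. With copies corrected for the tag end the log2 ratio of Ilk was 0.0606 (Fisher's exact test, FDR 0.579).

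Substrates of MARK and GSK3 were read side by side with the kinases. Of the 7 with a value (of 8 listed), 4 were lower and 0 higher. This list was made with the falls of Mapt, Map1b, Map2 and Map4 already known, so its count is no independent evidence. The log2 ratios were -0.68 for Mapt, -0.91 for Map1b, -1.55 for Map2 (24 and 8 copies), -0.67 for Map4 and -0.24 for Dpysl2, which encodes CRMP2 and was not called. With copies corrected for the tag end, Map4 was not called (log2 ratio -0.42), and Map1b, at -0.59, still was. Without its most copied tag the log2 ratio of Map4 was -0.26 (Fisher's exact test, FDR 0.494). Calls were lost in 7 of 18 alternatives for Map4, 4 for Mapt and 3 for Map1b. An assumed coefficient of variation of 0.2 was among them for each of these genes. Map2 lost its call in 10 of 17 alternatives, TMM scaling among them (Fisher's exact test, FDR 0.0677), and its log2 ratio became -1.09 with 1 copy put back for tags listed in a single library and -0.55 on its most copied tag alone. On its most copied tag alone Dpysl2 was called lower (log2 ratio -0.59), and without that tag its log2 ratio was 0.0692. With copies corrected for the tag end the log2 ratio of Dpysl2 was -0.0583 (Fisher's exact test, FDR 0.813).

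**Figure D4:**
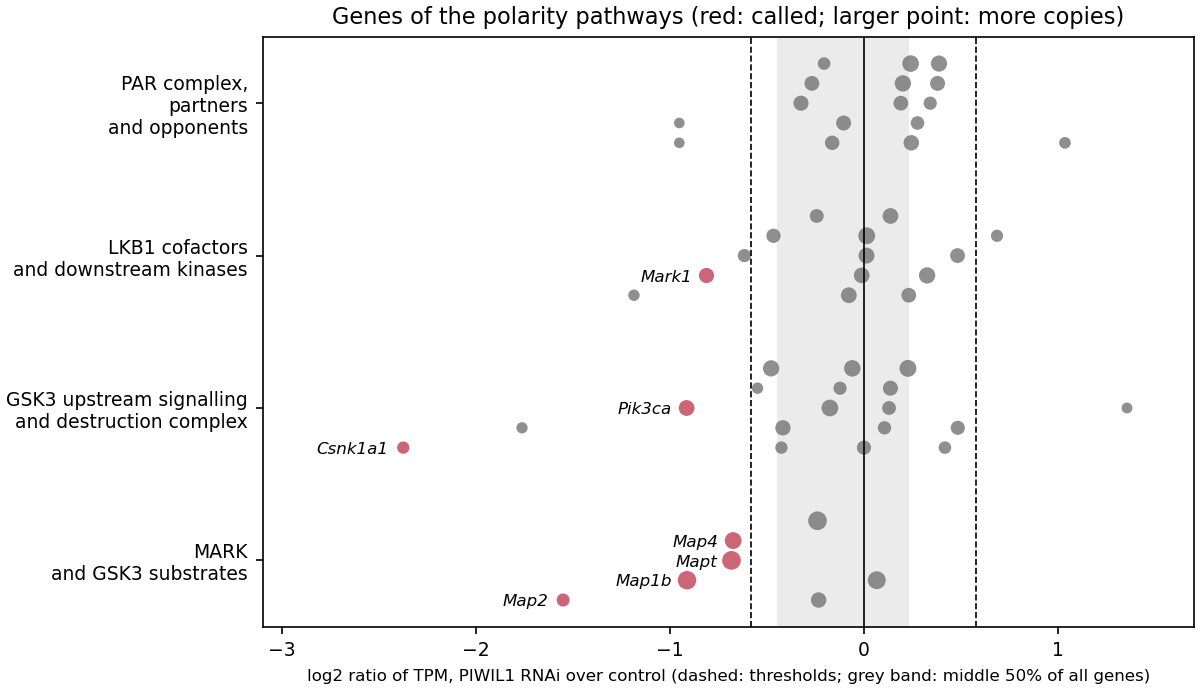
Log2 ratio of TPM, PIWIL1 RNAi over control, of the genes listed in both libraries in 4 lists around the polarity genes, with called genes in red and named, point size growing with copies, and vertical position within a list used only to separate points. The called genes outside the substrates were Mark1 at -0.81, Pik3ca at -0.91 and Csnk1a1 at -2.37. The Csnk1a1 value rests on 16 and 3 copies and changed with the tags counted. None of the called genes is higher in the RNAi library. The substrate list was made with the falls of its called genes already known, so its calls cannot be set against those of the other lists.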

How the data were processed

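One library per group was read by digital gene expression tags. Per the labels, rn4 is named in the submitters' processing notes, and the program that matched tags is not given in the sources used here. The authors deposited the copy counts of each tag and gene, without normalization, and TPM, which scales them to clean tags. Gene counts equalled the sum of their tags. Symbols came from RefSeq accessions (9337 of 9894 genes, 94.4%); no positions are given because the table's build is not rn4. The log2 ratio is that of TPM. Fisher's exact test was run across all genes, and across tags with at least 20 copies, with Benjamini-Hochberg adjustment (FDR), and was tested on simulated data. Totals were 1947600 and 1865913 copies, and 3 copies correspond to 0.886 and 0.908 TPM.

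For the tag-end correction, the class of a tag was its final 2 bases, or the length of its closing run of A where that was 3 or more. The median log2 ratio of each class (0.5 copies added), estimated on one part of the genes, was taken out of the other part. The members, lists and tests were chosen with earlier results of these data known. Named genes are all members, every called gene and the most copied gene of each pathway list, and Mapt, Map2, Map1b and Dpysl2. Alternatives were TMM and DESeq2 scaling, clean tags as totals, assumed variation, 1 added copy, copy filters, sums per symbol, tag subsets and stricter thresholds; leaving out tags ending in TG was added after seeing the data. Python 3.11.15, SciPy 1.17.1, pandas 2.3.3, NumPy 2.4.6, Matplotlib 3.10.9, R 4.3.3, edgeR 4.0.16 and DESeq2 1.42.0 were used.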

Additional observations from a re-analysis of the deposited data

How the results depend on the processing

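Mark1 was lower in the RNAi library under all 18 alternatives, with log2 ratios from -1.30 to -0.42. Those that changed only the test, the totals, copy filters or thresholds could not move its log2 ratio of -0.81. The same held for sums per symbol and for leaving out tags ending in 8 or more A, which Mark1 lacked. In these settings its sign was fixed in advance. The call of Mark1 was lost in 8 of the 18, leaving 0 polarity genes called lower. These 8 were an assumed coefficient of variation of 0.1, 0.2 or 0.4, the correction for the tag end, tags ending in TG left out, the most copied tag left out (log2 ratio -0.61), and thresholds of 1 on the log2 ratio or 0.001 on the FDR. No polarity gene was called higher under any alternative. With the tag-end correction 0 tags of the polarity genes were called, and 638 tags of all genes were called lower.

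Over all genes, 170 were lower and 114 higher with an assumed coefficient of variation of 0.1, 2 and 15 with 0.2, and 0 and 0 with 0.4. With TMM scaling 459 were lower and 398 higher, and with DESeq2 scaling 475 and 382. The balance of lower and higher genes therefore varied with the scaling. The counts were 377 and 180 with the tag-end correction, 250 and 128 without the most copied tag, 262 and 146 at a log2 threshold of 1, and 257 and 163 at an FDR of 0.001. At a log2 threshold of 1, 742 tags were lower and 352 higher.

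Some genes that were not called changed sign, and these included Prkci, Ilk and Dpysl2, whose FDR was under 0.05 (Fisher's exact test). For Prkci the change of sign rested on 14 and 12 copies. Its log2 ratio was 0.51 with the tag-end correction and 0.48 with TMM scaling, still short of the ratio threshold. With an assumed coefficient of variation of 0.1 Prkci no longer passed the FDR threshold. With TMM and DESeq2 scaling the log2 ratio was 0.0829 and 0.0734 for Stk11 and 0.0343 and 0.0248 for Gsk3a. With the tag-end correction it was -0.0769 for Mark3, 0.0479 for Prkcz, 0.0684 for Stk11 and -0.0166 for Cab39. Without the most copied tag it was 0.0114 for Prkcz, -0.19 for Prkci, 0.56 for Stk11, 0.0692 for Dpysl2 and -0.60 for Ilk. With the most copied tag alone it was -0.17 for Mark3, -0.0285 for Cab39 and -0.11 for Cdc42. A call was gained by Cdc42 without its most copied tag (higher, 0.72) and by Dpysl2 on its most copied tag alone (lower, -0.59). Without tags ending in TG it was -0.14 for Gsk3b. The causes of these changes were not tested. No paired analysis was possible because each group had 1 library, and no library could be left out.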
